A study of Mus musculus with 2 samples.

Results

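A set of 10 genes of the NRF2 antioxidant pathway was followed by name in the RNA of mouse iTreg cells cultured with an HDAC6 inhibitor: Nfe2l2, Keap1, Txn1, Txnrd1, Prdx1, Srxn1, Gclc, Gclm, Hmox1 and Nqo1. These 10 genes were picked by symbol, and each was found in 1 of the 23282 rows of the gene table. Naïve CD4+ T cells, purified with an isolation kit from the spleens of wild-type C57BL/6 mice, 7 to 10 weeks old, were activated through CD3 and CD28 and kept for 1 day under Treg-inducing conditions (TGF-β1 at 5 ng/ml and IL-2 at 1 ng/ml, with antibodies against IFN-γ and IL-4). The control culture received the vehicle DMSO, and the other culture received 10 μM Tubastatin A (TSA), an inhibitor selective for HDAC6, a mainly cytoplasmic deacetylase of tubulin and other proteins. With doses up to 10 μM, the paper saw a large rise of α-tubulin acetylation and a slight one of histone H3 acetylation. Its discussion adds that inhibitors at high doses may also act on other HDACs. All cells of a culture were used, with no sort for Foxp3+ cells described. There was 1 library per condition, so no p-value is given, and each difference below is a difference between 2 libraries with no replicate check.

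NRF2, the product of Nfe2l2, is a transcription factor that is held in the cytoplasm by KEAP1 and sent for degradation as long as the cell is not stressed. Oxidants and electrophiles modify cysteines of KEAP1, NRF2 then accumulates, pairs with small MAF proteins in the nucleus and binds antioxidant response elements in front of its target genes. The targets fall into a thioredoxin branch (Txn1, Txnrd1, Prdx1, Srxn1), a glutathione branch (Gclc, Gclm) and detoxifying enzymes (Hmox1, Nqo1). Activated T cells make reactive oxygen species as they start to grow, and both thioredoxin and glutathione supply reducing power at that stage. NRF2 itself is controlled mostly at the protein level, which RNA does not show.

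Values are normalized counts, which the authors deposited as log2 of the count plus 1, and a fold is 2 to the power of the difference between the deposited values, TSA minus control. Reads were recovered from these values, 10846166 for the control and 10432628 for TSA. A difference is given as a fold of TSA over control. Each range in parentheses is an exact Clopper-Pearson 95% interval from the reads, and it covers counting error only. The libraries read the 3′ end of transcripts, so counts were not divided by length. The labelled cell type was matched by the T cell markers: 9 of 12 were listed, each with reads in both libraries. Cd4 had 2434 reads with DMSO and 2549 with TSA, and of the 9 markers 4 had an interval above 1 and 4 below. Foxp3, the transcription factor that defines Treg cells, had 1633 and 965 reads and was lower with TSA, a fold of 0.586 (0.540 to 0.634), while Thy1 had the highest log2 fold change of the 9 at 0.65. Whether the Foxp3 difference goes with those of the NRF2 pathway was not tested. Myeloid markers together had 136 and 112 reads, B cell markers 15 and 15, CD8 T and NK cell markers 127 and 128, platelet markers 47 and 53, and erythroid markers 45 and 60. Of all these, 1 marker, Hbb-bs of the erythroid list, had an interval that excluded no change, with 4 and 17 reads. Hdac6 itself had 146 and 166 reads, a fold of 1.13 (0.896 to 1.42).

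The 10 genes did not move as a block. In the TSA library Srxn1 was higher by more than 2-fold and Hmox1 was lower by more than 2-fold, Nfe2l2, Txn1 and Gclc were higher and Gclm lower by smaller amounts that exceeded counting error, and Keap1, Txnrd1, Prdx1 and Nqo1 had intervals that held no change. Of the 12164 genes that reached 10 reads in either library, 11.5% exceeded 2-fold upwards and 3.15% downwards, against 1 and 1 of the 10 genes. An interval above 1 was found for 4 of the 10 and for 28.1% of all genes, and an interval below 1 for 2 of the 10 and for 28.0% of all genes, so these counts set the 10 genes apart in neither direction. Scaling by total reads raises every TSA value by 0.070 on the log2 scale; under it the interval of Prdx1 also lay above 1, which made 5 of the 10, and 4096 of the 12164 genes did. The median log2 fold change of the 10 was 0.14, beside 0.015 for all genes.

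**Figure D1:**
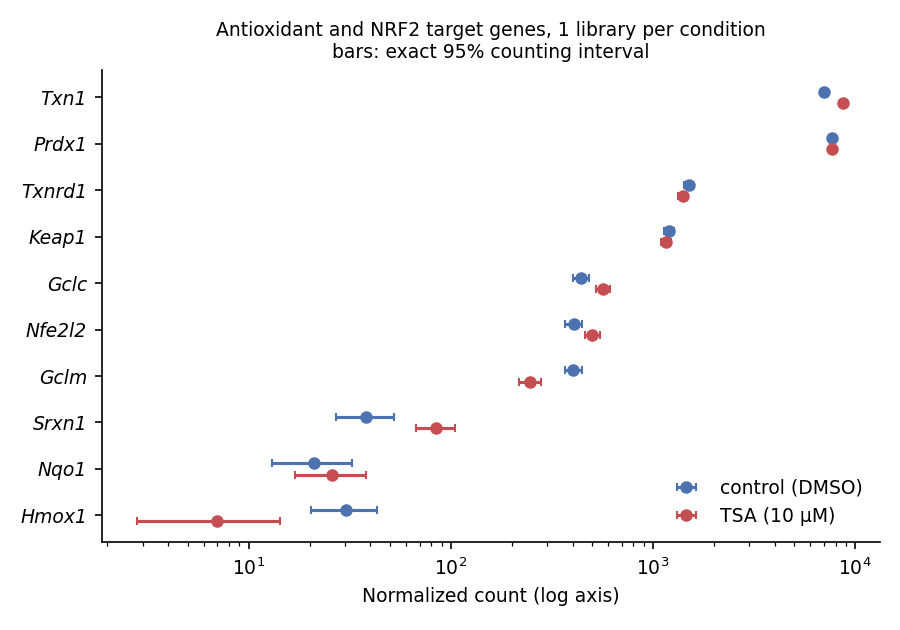
Normalized count (log axis) of each of the 10 genes in the control library (blue) and the TSA library (red), ordered by mean, with bars for the exact 95% counting interval. Txn1 and Prdx1 lie at 7013 or more in both libraries, and Srxn1, Nqo1 and Hmox1 lie under 100 with the widest bars.

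The levels of the 10 genes spanned a wide range. Txn1 and Prdx1 stood far above the others, ranking 142 and 145 by mean normalized count among the 12164 genes, and together they held 78.4% of the reads of the 10 genes with DMSO and 80.4% with TSA. Txnrd1 and Keap1 came next with 1163 to 1496 reads. Gclc, Nfe2l2 and Gclm formed a middle group of 248 to 569 reads. In the control library their intervals overlapped, whereas in the TSA library Gclm, at 247 normalized counts (217 to 279), lay below Nfe2l2 at 502 (459 to 547) and Gclc at 566 (521 to 615). Srxn1, Hmox1 and Nqo1 had fewer than 100 reads in each library. With DMSO their intervals overlapped, and with TSA they were apart, Srxn1 being the highest and Hmox1 the lowest.

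Nfe2l2 (chromosome 2, 75675513 to 75704641 on GRCm38), the gene for NRF2, had 406 normalized counts with DMSO and 502 with TSA. The fold of 1.23 (1.08 to 1.41) was small and larger than counting error. Keap1 (chromosome 9, 21229730 to 21239361), the gene for its inhibitor, had 1195 and 1157 normalized counts, a fold of 0.969 (0.893 to 1.05) whose interval held no change. The ratio of Nfe2l2 to Keap1 reads within a library does not depend on the scaling. It was 0.340 with DMSO and 0.433 with TSA, a 1.28-fold difference (1.09 to 1.49). Keap1 overlaps an antisense transcript at its 3′ end (Gm16754) that is not listed in the table, and whether reads were counted by strand is not given in the sources used here.

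**Figure D2:**
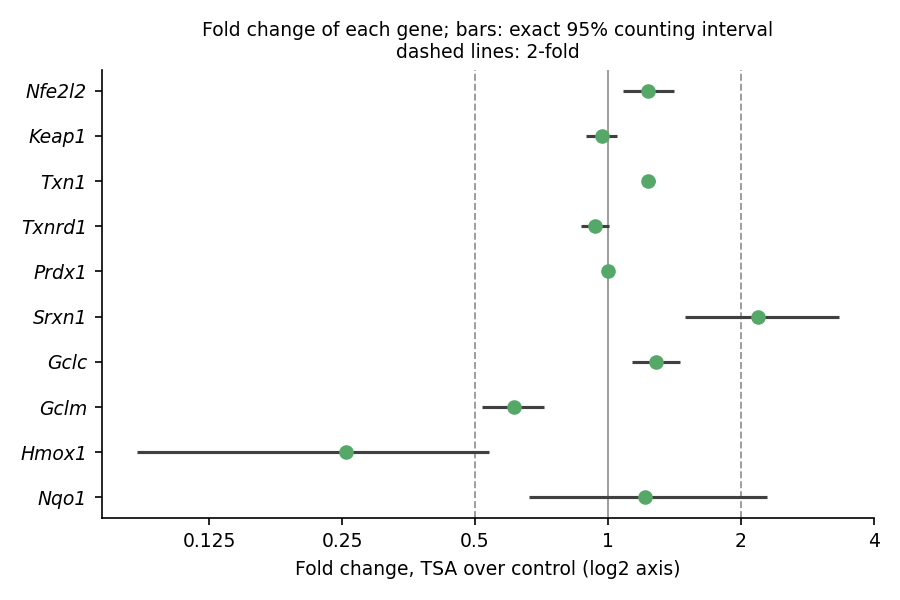
Fold change (TSA over control, log2 axis) of the 10 genes in order of role, with bars for the exact 95% counting interval, a solid line at no change and dashed lines at 2-fold. Srxn1 at 2.18 and Hmox1 at 0.255 lie past 2-fold, but both bars cross the dashed line.

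In the thioredoxin branch, Srxn1 showed the largest difference. Srxn1 (chromosome 2, 152105516 to 152111376) encodes sulfiredoxin, which repairs peroxiredoxins whose cysteine has been over-oxidised. It had 38 reads with DMSO and 85 with TSA, that is 38.2 and 84.6 normalized counts, a fold of 2.18 (1.49 to 3.34). At mean normalized counts from 20 to 100, the range in which Srxn1 lies, 18.6% exceeded 2-fold upwards, so a difference of this size was common at this level.

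Txn1 (chromosome 4, 57943373 to 57956411), the cytosolic thioredoxin that passes electrons to peroxiredoxins and ribonucleotide reductase, went from 7013 to 8664 normalized counts. With this depth the fold change of 1.24 (1.20 to 1.28) was known to within a few percent as far as counting goes. Prdx1 (chromosome 4, 116685544 to 116700822), a peroxiredoxin that breaks down hydrogen peroxide with electrons from thioredoxin, had 7669 and 7674 normalized counts, a fold of 1.001 (0.969 to 1.03). The ratio of Txn1 to Prdx1 reads was 0.914 with DMSO and 1.13 with TSA, a 1.23-fold difference (1.18 to 1.29). Prdx1 shares stretches of its 3′ end with 2 processed pseudogenes, Gm21399 and Gm7204, at 98.2% and 97.2% identity over 500 bases, so a part of its reads may not have been placed uniquely.

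Txnrd1 (chromosome 10, 82833951 to 82897712), the reductase that recharges thioredoxin with electrons from NADPH, had 1503 and 1407 normalized counts. Its fold change of 0.936 (0.869 to 1.01) did not leave the range of counting error. Within a library there were 4.66 Txn1 reads per Txnrd1 read in the control and 6.16 with TSA, a 1.32-fold difference (1.22 to 1.43). The thioredoxin branch therefore held a higher Srxn1, a slightly higher Txn1, and Prdx1 and Txnrd1 within counting error of no change at the deposited scaling.

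The subunits of glutamate-cysteine ligase, the rate-limiting enzyme of glutathione synthesis, went in opposite directions. Gclc (chromosome 9, 77754535 to 77794485), the catalytic subunit, had 441 normalized counts with DMSO and 566 with TSA, a fold of 1.28 (1.13 to 1.46). Gclm (chromosome 3, 122245557 to 122270732), the modifier subunit that makes the enzyme less sensitive to inhibition by glutathione, had 404 and 247, a fold of 0.612 (0.519 to 0.717). The control library held the subunits at nearly equal reads, 1.09 Gclc reads per Gclm read, and the TSA library held 2.29, so that the ratio differed 2.10-fold (1.71 to 2.58) whatever the scaling. Gclm, at -0.71 on the log2 scale, ranked 714 from the lowest among the 12164 genes. Past 1.5-fold, 8.34% of all genes were lower and 18.7% higher; of the 10 genes, Gclm and Hmox1 were lower and Srxn1 higher. At its 3′ end Gclm overlaps a noncoding transcript of the opposite strand, Gm17494, which is not listed in the table.

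Hmox1 (chromosome 8, 75093621 to 75100589) encodes haem oxygenase 1, which splits haem into biliverdin, iron and carbon monoxide. It had 30 reads with DMSO and 7 with TSA, that is 30.1 and 6.96 normalized counts, and its fold change of 0.255 (0.0857 to 0.537) was the lowest of the 10. It ranked 79 from the lowest of all genes by log2 fold change (-1.97), in a range of levels (a mean normalized count under 20) where 10.3% of the genes were lower by more than 2-fold. Its mean of 18.6 is near the top of that range, and from 20 to 100 the share was 4.65%. Hmox1 reached 10 reads in the control library alone, and the share under 20 is partly set by that filter. Macrophages also express Hmox1, and the purification of naïve CD4+ T cells is meant to remove them. The 9 myeloid markers, all listed with reads, summed to 136 reads with DMSO and 112 with TSA. With TSA 5 of them were higher and 4 lower, and none had an interval that excluded no change: Cd68 had 32 and 19 reads, Csf1r 9 and 2, Adgre1 4 and 0, Tyrobp 11 and 12, and Lyz2 6 and 10. Their part in the Hmox1 difference was not tested, and in RNA from a whole culture fewer cells of a type and less RNA per cell cannot be told apart. Nqo1 (chromosome 8, 107388225 to 107403206), a quinone reductase often used as a readout of NRF2 activity, had 21 and 26 reads. Its fold change of 1.22 (0.663 to 2.29) could not be told from no change, and a 2-fold difference also lies within the interval.

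**Figure D3:**
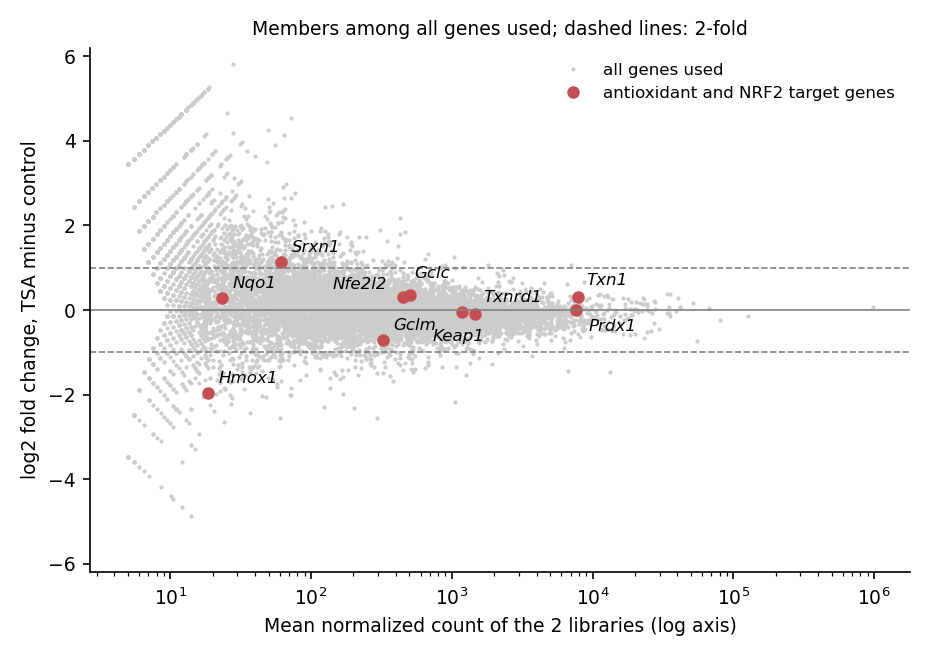
Log2 fold change (TSA minus control) against the mean normalized count of the 2 libraries (log axis) for all 12164 genes (grey) and the 10 antioxidant and NRF2 target genes (red), with dashed lines at 2-fold. Grey points fan out towards low counts, where Srxn1 (1.13), Nqo1 (0.28) and Hmox1 (-1.97) lie, and the genes with high counts lie near 0.

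The antioxidant response element was looked for as the letters TGACNNNGC or TGAGNNNGC, on either strand, in the 250 bases before the start site. RefSeq windows on GRCm38.p6 were matched by symbol for 8 of the 10 genes, with 10 start sites because Txnrd1 has 3. Of the 8 genes, 5 held such letters before at least 1 start site: Nfe2l2, Txnrd1, Prdx1, Srxn1 and Gclm. Srxn1 is counted only through TGAGNNNGC, the form added after the first search, and the others through TGACNNNGC. Counted by window, 5 of the 10 start sites held them. Over all 32851 windows of this length, 10.2% held the first form, 14.4% the second and 23.0% either. The windows of Srxn1, Prdx1 and Gclm are shown because these genes carried the letters and had folds of 2.18, 1.001 and 0.612; the matches are in capitals. The Srxn1 window is chr2:152105274-152105523 (plus strand), that of Prdx1 is chr4:116685349-116685598 (plus strand) and that of Gclm is chr3:122245307-122245556 (plus strand).
Srxn1: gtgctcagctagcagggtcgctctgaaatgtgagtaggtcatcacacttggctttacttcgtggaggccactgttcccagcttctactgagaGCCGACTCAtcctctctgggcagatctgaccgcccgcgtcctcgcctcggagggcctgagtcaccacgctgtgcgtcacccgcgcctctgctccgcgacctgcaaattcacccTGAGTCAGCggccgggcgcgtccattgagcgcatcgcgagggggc
Prdx1: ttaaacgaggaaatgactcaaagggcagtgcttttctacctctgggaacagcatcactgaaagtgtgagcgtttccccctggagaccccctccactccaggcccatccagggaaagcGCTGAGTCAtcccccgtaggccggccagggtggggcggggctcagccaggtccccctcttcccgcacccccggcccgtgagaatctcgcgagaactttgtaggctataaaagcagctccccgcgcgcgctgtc
Gclm: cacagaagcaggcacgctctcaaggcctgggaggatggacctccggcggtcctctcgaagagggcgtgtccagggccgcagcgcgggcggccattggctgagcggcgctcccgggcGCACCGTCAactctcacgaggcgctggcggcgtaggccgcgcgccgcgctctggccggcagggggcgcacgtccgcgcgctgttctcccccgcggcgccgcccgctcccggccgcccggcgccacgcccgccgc
Srxn1 held 2 matches, TGAGTCAGC ending 36 bases before the start and GCCGACTCA, on the opposite strand, ending 149 bases before it. Prdx1 held GCTGAGTCA on the opposite strand, 124 bases before the start, and Gclm held GCACCGTCA on the opposite strand, 125 bases before it. The Prdx1 match and the nearer Srxn1 match also contain the letters TGANTCA of the AP-1 site, which 6.75% of all windows hold. A match of these letters is no evidence of binding, and genes with them lay on both sides of a fold of 1.

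The wider pathway was described by 124 further symbols in 8 lists, of which 123 were listed and 102 reached 10 reads in either library. Of these 102, 9 exceeded 2-fold upwards and 3 downwards, 41 had an interval above 1 and 25 an interval below 1, and the median log2 fold change was 0.14. Over all 12164 genes the shares were 11.5% and 3.15% past 2-fold, and 28.1% and 28.0% by interval. Of the pathway counts, only that of intervals above 1 lay over its share. An interval excludes no change more easily with more reads, and these shares were not matched to the levels of the pathway genes, so no departure is read from them. These lists were described by counts and were not tested.

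**Figure D4:**
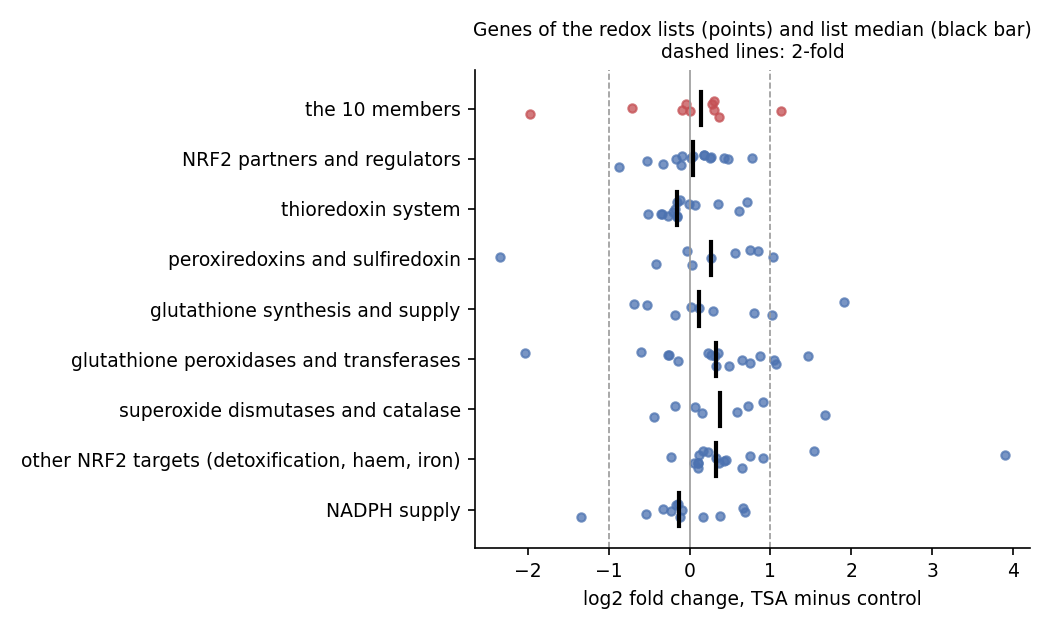
Log2 fold change (TSA minus control) of the genes of each list, with 1 point per gene, a black bar at the median of the list and dashed lines at 2-fold. The 10 genes (red) reach from -1.97 to 1.13, and the medians of the other lists lie between -0.15 and 0.37.

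Partners and regulators of NRF2 showed no gene past 2-fold among 15, all at mean normalized counts over 100; between 100 and 500, 2.65% of all genes were higher and 1.87% lower by that much, and at 500 or more, where most of the 15 lie, 0.227% and 0.707%. An interval above 1 was found for 5 and below 1 for 4, beside 28.1% and 28.0% of all genes, and the median log2 fold change was 0.045. Bach2, a repressor that competes for the same elements and keeps T cells in a naïve or regulatory state, had the highest level with 4493 and 5141 reads, a fold of 1.13 (1.09 to 1.18). Trim21, a ubiquitin ligase, was the highest at 1.71 (1.34 to 2.19), and Brca1, a DNA repair protein that also binds NRF2, the lowest at 0.548 (0.437 to 0.681). The ratio of Nfe2l2 to Bach2 reads was 0.0899 with DMSO and 0.0980 with TSA, and the interval of that difference (0.949 to 1.25) held no change.

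In the rest of the thioredoxin system, of 15 genes, none passed 2-fold; all lie at mean normalized counts over 100, where the shares just given for 2-fold apply. Of the 15, 9 had an interval below 1 and 2 an interval above 1, with a median log2 fold change of -0.15; over all genes 28.0% lay below and 28.1% above. These counts depended on the scaling: by total reads without Rn45s, the precursor of ribosomal RNA, 3 lay below 1 and 3 above with a median of -0.069, and of all 12164 genes 2504 lay below and 4242 above with a median of 0.0997. Txn2, the mitochondrial thioredoxin, had 2771 and 2515 reads, a fold of 0.899 (0.851 to 0.949) whose interval also held no change by that scaling, and Sephs2, which makes the selenium donor for selenoproteins such as the thioredoxin reductases, was the lowest with 563 and 400 reads, 0.704 (0.617 to 0.801). Txnip, which binds and inhibits thioredoxin, was the highest with 244 and 403 reads, 1.63 (1.39 to 1.93). Among 9 further peroxiredoxins and sestrins, 4 had an interval above 1 and 2 below, beside 28.1% and 28.0% of all genes, with a median log2 fold change of 0.26. By total reads 6 lay above and 2 below, beside 4096 and 2631 of the 12164 genes, and without Rn45s 6 and 1. Prdx5 and Prdx2, named after their values were seen, were higher, with 473 and 703 reads, a fold of 1.47 (1.31 to 1.66), and with 1475 and 1789 reads, 1.20 (1.12 to 1.29). Prdx6 had a fold of 1.02 (0.967 to 1.07) and Prdx4, the peroxiredoxin of the endoplasmic reticulum, was at 0.747 (0.583 to 0.952), an interval that held no change by total reads without Rn45s. Of the sestrins, stress proteins linked to peroxide defence, the most abundant was Sesn3 (named after its values were seen), with 410 and 697 reads, a fold of 1.68 (1.49 to 1.91). Sesn1 had 60 and 125 reads, a fold of 2.04 (1.505 to 2.86), and Sesn2 had 19 and 3 reads, a ratio with an interval of 0.0296 to 0.531. Sesn1 lies at mean normalized counts from 20 to 100, where 18.6% of the genes used were past 2-fold upwards. Sesn2 lies under 20, where 10.3% were past 2-fold downwards.

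Around the glutathione branch, Slc3a2, the heavy chain of the cystine importer and of other amino acid carriers, was the most abundant gene and was lower, with 2917 and 2046 reads and a fold of 0.694 (0.656 to 0.735). Slc7a11, the light chain of that importer, was named after its values were seen. It had 39 and 24 reads, a fold of 0.619 (0.351 to 1.04) whose interval held no change. Ggct, which releases 5-oxoproline in glutathione breakdown, was higher at 1.22 (1.03 to 1.46). Cbs, the entry enzyme of transsulfuration, had 13 and 52 reads, a fold of 3.75 (2.13 to 7.93), and Oplah, which turns 5-oxoproline back into glutamate, 19 and 40 reads, 2.03 (1.18 to 3.81). Both lie at mean normalized counts from 20 to 100, where 18.6% of the genes used were past 2-fold upwards. Of the 9 genes of this list, 3 had an interval above 1 and 1 below, beside 28.1% and 28.0% of all genes, with a median log2 fold change of 0.12.

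Enzymes that use glutathione had 3 of 17 genes past 2-fold upwards and 1 downwards, beside 11.5% and 3.15% of all genes; at mean normalized counts from 20 to 100, 18.6% of all genes were past 2-fold upwards, and under 20, 52.1%. An interval above 1 was found for 7 and below 1 for 3, beside 28.1% and 28.0% of all genes, and by total reads for 10 and 2, beside 4096 and 2631 of the 12164. Gstm1, a glutathione transferase, had 52 and 147 reads, a fold of 2.77 (2.03 to 3.92), and Gsta4, a transferase that clears lipid aldehydes, had 72 and 17 reads, 0.244 (0.129 to 0.401). Gpx8 with 17 and 37 reads and Gstm5 with 10 and 22 reads were also past 2-fold, and the interval of Gstm5 (0.990 to 5.15) held no change. Reads of the closely similar Gstm genes may not be fully separated. Gpx1, the abundant cytosolic glutathione peroxidase, was lower, with 6350 and 5330 reads and a fold of 0.831 (0.801 to 0.862).

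Superoxide dismutases, catalase and methionine sulfoxide reductases had 6 of 8 genes with an interval above 1 and 1 below, beside 28.1% and 28.0% of all genes, and a median log2 fold change of 0.37. By total reads 6 lay above and 0 below, and of all 12164 genes 4096 above and 2631 below. Sod1, the cytosolic superoxide dismutase, was the most abundant with 9487 and 10057 reads, a fold of 1.05 (1.02 to 1.08). Msrb2 had 81 and 155 reads, 1.88 (1.44 to 2.51), Msrb3 had 8 and 28 reads, 3.19 (1.54 to 8.80), and Msra had 122 and 91 reads, 0.740 (0.557 to 0.977), an interval that held no change by total reads.

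Of 17 other NRF2 targets, 10 had an interval above 1 and none below, beside 28.1% and 28.0% of all genes, with a median log2 fold change of 0.33. By total reads it was 12 of the 17, and 4096 of the 12164 genes. Blvrb, a flavin and biliverdin reductase that is abundant in red blood cells, had 35 and 105 reads, a fold of 2.92 (2.01 to 4.49). The erythroid markers summed to 4.15 and 5.75 CPM, and their part in this difference was not tested. Blvra, the reductase for the biliverdin that haem oxygenase makes, was named after its values were seen and had 709 and 778 reads, a fold of 1.09 (0.980 to 1.20). By total reads its interval lay above 1. Trim16 had 0 and 14 reads, 4.62-fold higher with the control set at the floor of 3 reads. The lower limit of its counting interval was 3.28. At mean normalized counts under 20, where Trim16 lies, 52.1% of the genes used exceeded 2-fold upwards. From 20 to 100, where Blvrb lies, 18.6% did. Fth1, the ferritin heavy chain that stores the iron freed from haem, was the most abundant with 3739 and 4251 reads, 1.13 (1.08 to 1.18), and Cyb5r1 the lowest at 0.854 (0.709 to 1.03).

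Among 12 genes that supply NADPH, on which both branches draw, 4 had an interval above 1 and 5 below, beside 28.1% and 28.0% of all genes, with a median log2 fold change of -0.13. G6pdx, the entry enzyme of the pentose phosphate pathway, was lower with 352 and 244 reads, a fold of 0.687 (0.581 to 0.810), while Taldo1, a later enzyme of the same pathway, was higher with 1957 and 3186 reads, 1.61 (1.52 to 1.71). Mthfd2, a mitochondrial folate enzyme, was lower at 0.851 (0.811 to 0.893), and Aldh1l2, another, had 19 and 7 reads, 0.396 (0.130 to 0.906). At the level of Aldh1l2, a mean normalized count under 20, 10.3% of the genes used were past 2-fold downwards.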

How the data were processed

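Total RNA from 1 control and 1 TSA-treated culture was made into QuantSeq 3′ libraries and sequenced as single-end 75-nt reads by the authors, who analysed it with ExDEGA. The submitters' processing notes name Bowtie2, bedtools and mm10; versions, annotation and normalization are not given in the sources used here. The authors deposited log2 values, which proved to be log2 of a normalized count plus 1. Taken out of the log2 scale, 1 read was worth 1.005 with DMSO and 0.995 with TSA, and 99.95% and 99.94% of the values of 1 to 300 reads were whole reads to within 0.1. For high counts the 3 deposited decimals leave the recovered reads uncertain by a few reads. Control rows listed just above 0 were read as 0 reads. The reads were 10846166 and 10432628, and 3 reads, the smallest amount taken as detectable, were 0.277 and 0.288 CPM.

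Genes with 10 or more reads in either library were used, and 2-fold was the threshold for a difference, as in the study. At low levels a gene can enter through 1 library alone, so the shares past 2-fold at mean normalized counts under 20 are partly set by this filter. No test was possible with 1 library per condition. Fold changes carry a pseudocount of 1, whereas the intervals and the ratios of reads between genes (exact conditional odds ratio) do not. Intervals cover counting error only, since PCR copies cannot be told from other reads. The 10 genes and all lists were chosen with earlier results of these data known, and the letters TGAGNNNGC were added after TGACNNNGC had been searched. Named further genes are, in each list, those past 2-fold, the most abundant, and the highest and lowest by fold change at a mean normalized count of at least 50. Of the T cell markers, 3 T cell receptor constant genes were not listed under the symbols used. Positions are from GENCODE M21. Shared 3′ ends were sought with the last 500 bases of each coding transcript (at least 75 bases at 95% identity). The steps were tested on simulated data. Alternatives for scaling, pseudocount, filter and threshold were run with Python 3.11.15, numpy 2.4.6, scipy 1.17.1 and pandas 2.3.3.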

Additional observations from a re-analysis of the deposited data

How the results depend on the processing

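No paired analysis was possible because each condition has a single library, which also leaves none to take out. Under 5 other scalings and pseudocounts of 0.1 and 5, the same 1 gene higher (Srxn1) and 1 lower (Hmox1) by more than 2-fold were found among the 10, and their median log2 fold change stayed above 0 (0.12 to 0.28 over these and the filters). Keap1 and Prdx1, both near no change, took either sign as the scaling changed, with log2 fold changes of -0.048 to 0.039 and -0.0013 to 0.086. Hmox1 was dropped by the filters that asked for at least 10 reads in both libraries or a mean normalized count of at least 50, so 0 genes were lower. At 1.5-fold 2 were lower (Gclm and Hmox1). With the whole interval beyond 2-fold 0 were higher and 0 lower, and with an interval that excludes no change 4 were higher and 2 lower. For the 102 further pathway genes, 9 higher and 3 lower became 5 higher with a pseudocount of 5, 1 lower with at least 10 reads in both libraries, 3 higher and 0 lower at a mean of at least 50, 26 and 6 at 1.5-fold, 4 and 1 with the whole interval beyond 2-fold, and 41 and 25 with an interval that excludes no change. Without a filter, 12 of the 123 listed genes were higher and 6 lower. By total reads without Rn45s, the intervals of Txn2, Prdx4 and Msra held no change, and those of Prdx1, Prdx6, Gstm5 and Blvra lay above 1. The medians of the 8 lists kept their sign under every scaling. Depth limits Nqo1, Hmox1 and Srxn1 most.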
